A study of Mus musculus with 12 samples.

Results

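The oligodendrocyte lineage transcription factors examined here were 10 named genes, Olig1, Olig2, Sox10, Sox8, Nkx2-2, Nkx6-2, Myrf, Tcf7l2, Zfp488 and Zfp536, out of 35675 genes in the files. They were chosen by symbol, and the estimated counts and TPM (transcript abundance scaled for length and library size) of their 54 annotated transcripts were summed per gene. The study sequenced RNA of cells sorted from the spinal cord of mice at postnatal day 10, to ask what loss of the Ral GTPases does in oligodendrocytes. The Ral proteins belong to the Ras superfamily and act in delivering vesicles to the plasma membrane. There were 4 RalAB cKO mice (CnpCre, RalAflox/flox and RalBflox/flox), 4 RalA cKO mice (CnpCre and RalAflox/flox) and 4 control mice (CnpCre), with 1 library per mouse. All 3 groups carried the Rosa26-StopFlox-TdTomato reporter, so the control mice also had Cre and the reporter but no floxed Ral allele. The sort took tdTomato-positive cells of large forward scatter. It was thus aimed at cells that had expressed Cre from the Cnp gene, which is active in cells of the oligodendrocyte lineage and in Schwann cells. Markers of other cell types were also counted in the libraries, as given below. Sex, litter and the floxed exons are not given in the sources used here.

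Oligodendrocytes arise from precursors that first withdraw from the cell cycle and then switch on the genes of myelin. The basic helix-loop-helix proteins Olig1 and Olig2 and the high-mobility-group protein Sox10 mark the whole lineage, and Sox8 is a close relative of Sox10. Nkx2-2 acts around the onset of differentiation, Tcf7l2, an effector of Wnt signalling, is known as a marker of newly formed cells before myelination, and Myrf is a membrane-bound factor whose cleaved part enters the nucleus and, with Sox10, activates myelin genes.

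Libraries held 10.93 to 15.44 M estimated counts, and all 10 factors passed the filter on low counts in a fit over 13456 genes. Markers of the lineage were present in every library: genes of committed and newly formed oligodendrocytes made up 0.577% to 0.973% of counts and genes of mature oligodendrocytes 0.143% to 0.531%. Genes of neurons made up at most 0.0149% of any library and genes of Schwann cells at most 0.00772%. Genes of microglia made up 0.0132% to 0.153% of counts, highest in RalAB cKO, and genes of astrocytes 0.0262% to 0.0664%. Rala itself averaged 37.7 ± 4.63 CPM (counts scaled to the size of the library; SD, n = 4) in RalAB cKO, 39.9 ± 4.62 CPM in RalA cKO and 49.5 ± 10.7 CPM in control cells, and neither mutant passed the test for it (edgeR adjusted p = 0.0832 for RalAB cKO, against 0.236 for RalA cKO). Ralb averaged 15.8 ± 1.32, 15.4 ± 2.35 and 19.2 ± 3.37 CPM in the RalAB cKO, RalA cKO and control cells (adjusted p = 0.216 in RalAB cKO). Counts of a whole gene do not show whether a single floxed exon was removed, so the genotypes are used as labelled.

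In RalAB cKO cells Tcf7l2 and Myrf were higher than in control cells, and Sox8 and Nkx2-2 were lower. Tcf7l2 was 1.56 times the control level and Myrf 1.32 times, whereas Sox8 stood at 0.698 and Nkx2-2 at 0.665 of the control level. Of 24 alternative analyses, the call against control was lost in 0 for Sox8, 2 for Tcf7l2, 4 for Nkx2-2 and 8 for Myrf. Against RalA cKO cells, Tcf7l2, Myrf and Zfp488 were higher in RalAB cKO cells. That call was lost in 0 of 24 alternatives for Tcf7l2, 10 for Zfp488 and 11 for Myrf. Olig1, Olig2, Sox10, Nkx6-2 and Zfp536 passed the test in no comparison. In RalA cKO cells none of the 10 factors passed the test against control. Some transcripts, tested as shares of the counts of their gene, did not overlap between RalA cKO and control cells. They were 2 Tcf7l2 transcripts, a Myrf transcript and a Zfp536 transcript. No share test passed after adjustment (exact two-sided permutation tests, smallest adjusted p = 0.125).

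Set against the whole table, 4 of the 10 factors were called in RalAB cKO against control, 2 higher and 2 lower, where 18.4% of all 13456 genes were called, 9.39% higher and 9.02% lower. Between RalAB cKO and RalA cKO 3 of 10 were called, 3 higher and 0 lower, where 11.5% of all genes were called, 7.03% higher and 4.50% lower. At an unadjusted p under 0.05 there were 6 of 10 in each of these comparisons. In RalA cKO against control edgeR called 0 of 10, where 2.78% of all genes were called. There 3 of 10 had an unadjusted p under 0.05. DESeq2 called 1 and limma-voom with quality weights called 2, where these tools called 1083 and 1789 of all 13456 genes. For an unadjusted p under 0.05 the share of all genes is not given in any comparison. Counts at that threshold are therefore not read as particular to the factors. The median log2 fold change of the 10 factors was 0.24 in RalAB cKO against control, 0.06 in RalA cKO against control and -0.00074 between the mutants, against -0.01, -0.02 and -0.03 over all genes. The comparisons share their libraries, since RalA cKO and RalAB cKO were set against the same 4 control mice.

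**Figure D1:**
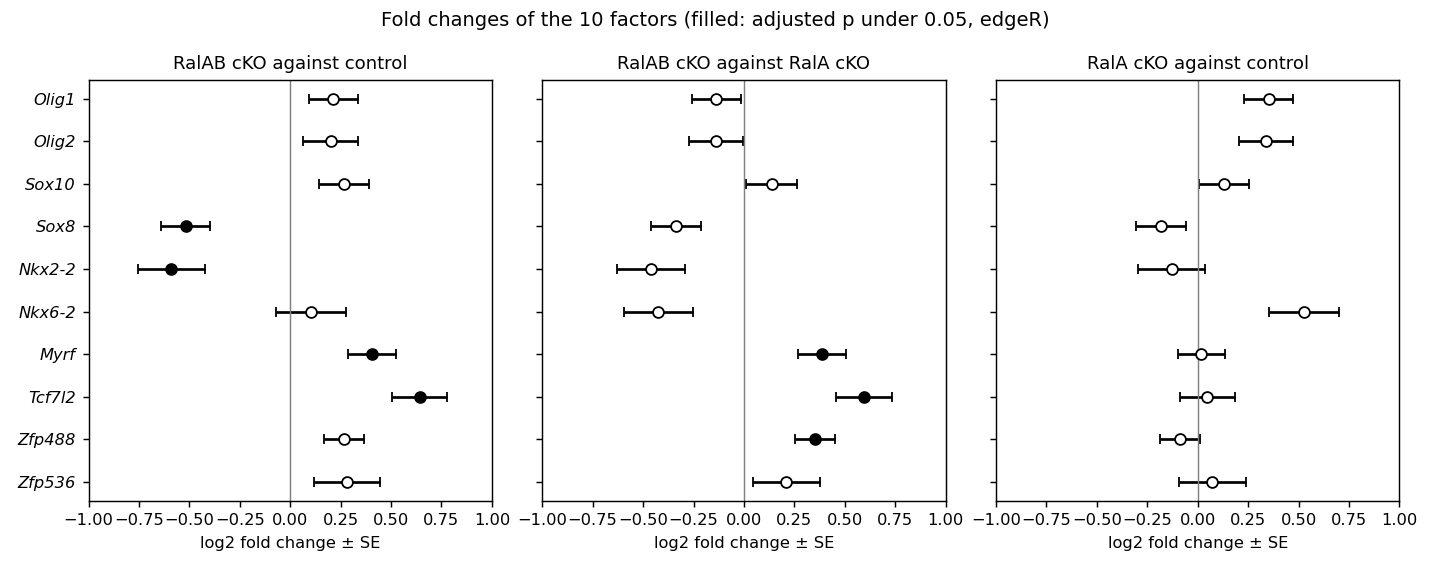
Log2 fold changes with their standard errors (horizontal bars) for the 10 factors in each of the 3 comparisons. Filled points have an adjusted p under 0.05 in edgeR; in RalAB cKO against control these are Tcf7l2 (0.64), Myrf (0.40), Sox8 (-0.52) and Nkx2-2 (-0.59).

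By level per length, Olig1 stood highest and Zfp536 lowest. Averaged over the 12 libraries, TPM was 1268 ± 103 (SD, n = 12) for Olig1, 1058 ± 100.7 for Sox10, 707 ± 102 for Myrf and 290.4 ± 38.6 for Olig2. It was 242 ± 50.3 for Nkx6-2, 201 ± 43.6 for Sox8, 71.2 ± 22.1 for Nkx2-2, 48.0 ± 8.599 for Zfp488, 46.4 ± 13.1 for Tcf7l2 and 20.3 ± 5.48 for Zfp536. Each factor was compared with the next in this order by an exact two-sided sign-flip permutation test over the 12 libraries, 9 tests in all. Nkx6-2 was not separated from Sox8 (higher in 10 of 12 libraries, by 0.27 on the log2 scale, adjusted p = 0.0621), and Zfp488 was not separated from Tcf7l2 (higher in 5 of 12, adjusted p = 0.305). For the other 7 neighbours the mean log2 ratio passed the test (adjusted p from 0.000879 to 0.0163). The ratio was not always beyond its spread: Olig2 over Nkx6-2 was 0.28 with an SD of 0.32. For Nkx2-2 over Zfp488 it was 0.52 with an SD of 0.495, and both pairs were higher in 10 of 12 libraries. The 12 libraries pool the 3 groups. Within groups the order moved at 2 places. In RalAB cKO cells Tcf7l2 ranked 7 and Nkx2-2 ranked 9, against 9 and 7 in both RalA cKO and control cells. The RalAB cKO means were close for their spread. They were 57.0 ± 9.50 TPM for Tcf7l2, 54.5 ± 9.66 for Zfp488 and 54.1 ± 19.1 for Nkx2-2 (SD, n = 4). The order within groups was not tested. Nkx6-2 stood above Sox8 in RalAB cKO and RalA cKO cells, and below it in control cells.

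**Figure D2:**
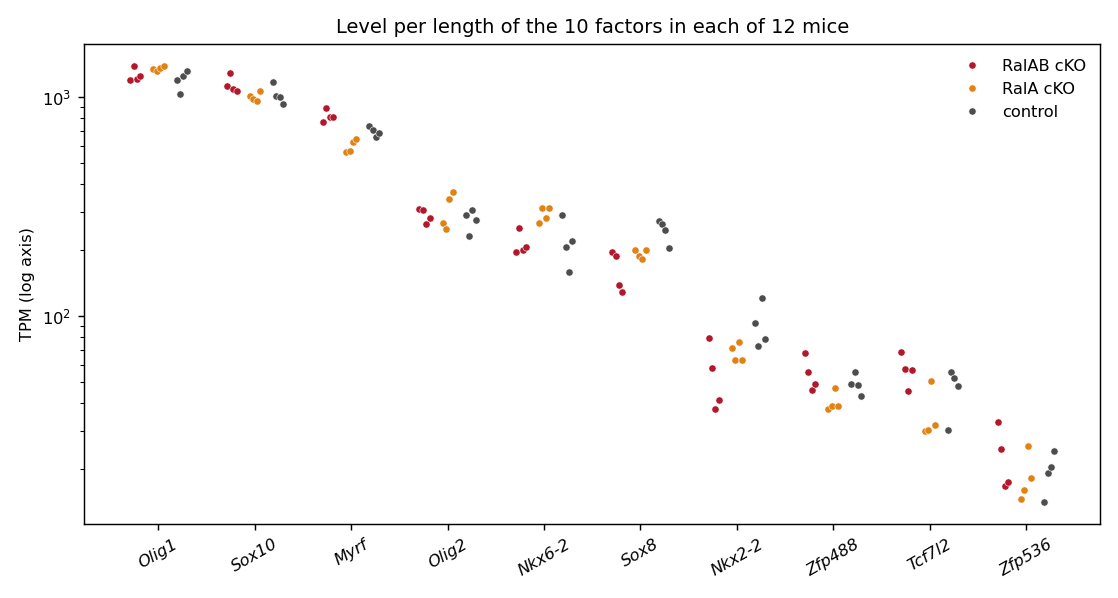
TPM (log axis) of each factor in each of the 12 mice, 4 per group, factors in order of their mean over all mice. Olig1 (1029 to 1389 TPM) and Sox10 (930 to 1291 TPM) stand highest and Zfp536 (14.1 to 32.7 TPM) lowest.

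Olig1 (ENSMUSG00000046160, chr16:91269772-91271933, plus strand; positions here are of GRCm38) and Olig2 (ENSMUSG00000039830, chr16:91225457-91228677, plus strand), neighbouring genes that specify and maintain the lineage, had 1 transcript each. Olig1 had 1323, 1753, 1634 and 1682 CPM in RalAB cKO cells, 1741, 1758, 1611 and 1923 CPM in RalA cKO cells and 1477, 1139, 1346 and 1549 CPM in control cells. All 4 RalA cKO libraries were above all 4 control libraries. The fold change there was 0.35 ± 0.12 (log2 ± SE) and did not pass (adjusted p = 0.109). It passed with DESeq2 (adjusted p = 0.0465) and with limma-voom with quality weights (adjusted p = 0.0347). Olig1 was the only factor of the 10 without overlap in that comparison, where 11.4% of all genes did not overlap. Olig2 had 398, 453, 417 and 441 CPM in RalAB cKO cells, 406, 391, 483 and 599.5 CPM in RalA cKO cells and 417, 303, 383 and 384 CPM in control cells. The groups overlapped, and against control Olig2 was at 0.20 ± 0.13 in RalAB cKO (adjusted p = 0.333) and at 0.34 ± 0.13 in RalA cKO (adjusted p = 0.154).

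Sox10 (ENSMUSG00000033006, chr15:79154908-79165240, minus strand), which activates genes of the whole lineage and of myelin, had 1456, 1920, 1718 and 1688 CPM in RalAB cKO cells, 1553, 1551, 1350 and 1716 CPM in RalA cKO cells and 1722, 1337, 1259 and 1320 CPM in control cells. The high control library was mouse 1, which lay within the range of the mutants. The fold change in RalAB cKO against control was 0.27 ± 0.13 and did not pass (adjusted p = 0.154); without control mouse 1 it was 0.38 and passed (adjusted p = 0.0372), as it did with limma-voom with quality weights (0.37, adjusted p = 0.00987). Of its counts, 60.9% ± 0.703, 55.3% ± 8.98 and 60.7% ± 4.31 went to Sox10-201 in RalAB cKO, RalA cKO and control cells, and nearly all the rest to 1 other transcript.

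Sox8 (ENSMUSG00000024176, chr17:25565892-25570686, minus strand) fell in RalAB cKO cells. It had 288, 315, 258 and 234 CPM in RalAB cKO cells, 361, 345, 300.2 and 376 CPM in RalA cKO cells and 457, 415, 358 and 339 CPM in control cells. All 4 RalAB cKO libraries were below all 4 control libraries, and the fold change was -0.52 ± 0.12 (adjusted p = 0.00787). Against RalA cKO it was -0.34 ± 0.12, which did not pass (adjusted p = 0.0950), and RalA cKO against control was -0.18 ± 0.12 (adjusted p = 0.380). The fall in RalAB cKO against control passed in all 24 alternatives run, from -0.62 to -0.44 with adjusted p from 0.000899 to 0.0345. In these bulk samples fewer cells of a type and less RNA per cell cannot be told apart. Sox8-201 held at least 98.8% of the counts of Sox8 in each library, and taken alone it was at -0.54 ± 0.12 in RalAB cKO against control (adjusted p = 0.0538 over all transcripts).

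Nkx2-2 (ENSMUSG00000027434, chr2:147177546-147194243, minus strand) fell in RalAB cKO cells too. It had 54.3, 44.1, 32.3 and 32.4 CPM in RalAB cKO cells, 62.8, 49.99, 52.3 and 59.3 CPM in RalA cKO cells and 69.99, 51.2, 71.9 and 51.9 CPM in control cells. Mice 2, 3 and 4 of RalAB cKO lay below every control library and mouse 1 lay within the control range. The fold change was -0.59 ± 0.17 (adjusted p = 0.0230). Against RalA cKO it was -0.46 ± 0.17 and did not pass (adjusted p = 0.0961), and RalA cKO against control was -0.13 ± 0.17 (adjusted p = 0.671). The call in RalAB cKO against control was lost without RalAB cKO mouse 3 (adjusted p = 0.0792) or 4 (0.0816), or without control mouse 1 (0.0554) or 3 (0.0721), with fold changes from -0.52 to -0.49. Its antisense neighbour Nkx2-2os, which overlaps Nkx2-2 on the other strand of chromosome 2, averaged 5.18 CPM in RalAB cKO cells and 8.81 CPM in control cells (-0.76 ± 0.22, adjusted p = 0.0218). No source used here gives the strand setting of the counting, so reads of the pair cannot be told apart with certainty. The coding transcript Nkx2-2-201 carried 82.7% ± 2.31 of the counts of Nkx2-2 in RalAB cKO, 84.2% ± 1.47 in RalA cKO and 79.9% ± 2.71 in control cells, and was itself at -0.55 ± 0.19 in RalAB cKO against control (adjusted p = 0.223).

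The promoters of Sox8 and Nkx2-2, the factors that fell in RalAB cKO, and of Tcf7l2, which rose, are printed so that their sequences can be set beside these values. Each is the 250 bases before the start of the gene in RefSeq, build GRCm38.p6, 5′ to 3′ on the strand of the gene. Capitals mark matches on either strand to CANNTG, the E-box that basic helix-loop-helix proteins such as Olig2 bind, and to ACAAAG or ACAATG, sequences that Sox proteins bind. No matches overlapped in these windows.
Sox8 (chr17:25570687-25570936, minus strand): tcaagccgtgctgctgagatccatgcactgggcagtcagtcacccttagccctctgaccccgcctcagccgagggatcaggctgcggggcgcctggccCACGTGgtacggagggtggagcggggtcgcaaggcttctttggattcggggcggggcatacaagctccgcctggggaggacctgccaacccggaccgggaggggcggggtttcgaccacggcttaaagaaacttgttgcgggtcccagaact
Nkx2-2 (chr2:147186403-147186652, minus strand): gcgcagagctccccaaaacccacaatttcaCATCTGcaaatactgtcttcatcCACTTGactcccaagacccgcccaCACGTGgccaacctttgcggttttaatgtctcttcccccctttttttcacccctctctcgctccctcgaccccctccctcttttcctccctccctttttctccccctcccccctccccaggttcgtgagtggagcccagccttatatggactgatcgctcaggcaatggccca
Tcf7l2 (chr19:55741560-55741809, plus strand): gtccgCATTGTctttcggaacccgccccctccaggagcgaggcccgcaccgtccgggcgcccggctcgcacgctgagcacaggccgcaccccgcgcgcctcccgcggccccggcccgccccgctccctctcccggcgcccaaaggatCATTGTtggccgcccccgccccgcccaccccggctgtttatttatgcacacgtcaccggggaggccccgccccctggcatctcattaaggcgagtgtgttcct
Sox8 held 1 match to CANNTG and Nkx2-2 held 3, where 66.2% of 32851 promoters of this length held at least 1. Tcf7l2 held 2 matches to ACAATG, where 10.7% of promoters held at least 1, and none of the 3 windows held ACAAAG, found in 16.5%. RefSeq gave Tcf7l2 a second promoter, not printed, at chr19:55895071-55895320, with 1 match to ACAAAG and none to ACAATG. RefSeq promoters were matched for 7 of the 10 factors, and Myrf was not among them. Of the factors called in no comparison, Olig2 held 1 match to ACAATG and Nkx6-2 held 1 to CANNTG. Zfp488, called between the mutants, and Zfp536, called in no comparison, held none of the 3 sequences.

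Nkx6-2 (ENSMUSG00000041309, chr7:139579376-139582797, minus strand), a homeobox factor of myelinating oligodendrocytes, had 148, 212, 183 and 186 CPM in RalAB cKO cells, 222, 272, 212 and 272 CPM in RalA cKO cells and 234, 153, 118 and 172 CPM in control cells. RalAB cKO mouse 2 came within 0.1 CPM of the lowest RalA cKO library without reaching it. The fold change was -0.42 ± 0.17 in RalAB cKO against RalA cKO (adjusted p = 0.146) and 0.53 ± 0.17 in RalA cKO against control (adjusted p = 0.0972), and neither passed. With limma-voom with quality weights both passed (adjusted p = 0.0249 and 0.00852). The first also passed with 2 groups alone (adjusted p = 0.0381), and the second without control mouse 1 (0.73, adjusted p = 0.0173). Nkx6-2-201, annotated as subject to nonsense-mediated decay, took 57.4% of the counts in RalAB cKO, 48.2% in RalA cKO and 54.4% in control cells. RalAB cKO was at 0.10 ± 0.17 against control (adjusted p = 0.731).

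Myrf (ENSMUSG00000036098, chr19:10208272-10240748, minus strand) rose in RalAB cKO cells against both other groups. It had 2097, 2794, 2677 and 2598 CPM in RalAB cKO cells, 1767, 1951, 1896 and 2163 CPM in RalA cKO cells and 2149, 1893, 1687 and 1950.5 CPM in control cells. Mice 2, 3 and 4 of RalAB cKO were above every other library, and mouse 1 lay below 1 RalA cKO and 1 control library. The fold change was 0.40 ± 0.12 against control (adjusted p = 0.0258) and 0.39 ± 0.12 against RalA cKO (adjusted p = 0.0437), with RalA cKO at 0.02 ± 0.12 against control (adjusted p = 0.940). Against control the call was lost without RalAB cKO mouse 2, 3 or 4 or control mouse 2, 3 or 4 (0.33 to 0.42, adjusted p from 0.0524 to 0.0881), and with transcript length offsets (0.36, adjusted p = 0.0514). Against RalA cKO it was lost without RalA cKO mouse 1, 2 or 3, RalAB cKO mouse 2, 3 or 4 or control mouse 2 or 4 (0.34 to 0.39, adjusted p from 0.0638 to 0.146). It was also lost with no count filter (adjusted p = 0.0778) and with a covariate of summed Y-linked expression (adjusted p = 0.0549).

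The long coding transcript Myrf-201 held 88.3% ± 0.782 of the counts of Myrf in RalAB cKO, 90.0% ± 0.652 in RalA cKO and 86.9% ± 1.197 in control cells. The shorter coding transcript Myrf-202 rose to 243 ± 17.2 CPM in RalAB cKO cells, against 158 ± 19.3 CPM in RalA cKO cells (0.62 ± 0.12, adjusted p = 0.0325), and averaged 192 ± 30.7 CPM in control cells. That call was lost without any 1 of the 4 RalA cKO or 4 RalAB cKO mice or without control mouse 4 (0.55 to 0.68, adjusted p from 0.0598 to 0.116). A transcript annotated with a retained intron, Myrf-206, took 0.423% ± 0.183 of the counts in RalAB cKO, 0.262% to 0.683% by mouse, against 0.115% ± 0.0320 in control cells. The RalAB cKO and control shares did not overlap (exact two-sided permutation p = 0.0286, adjusted p = 0.125).

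Tcf7l2 (ENSMUSG00000024985, chr19:55741820-55933654, plus strand) rose in RalAB cKO cells against both other groups. It had 106, 102, 94.4 and 108 CPM in RalAB cKO cells, 53.9, 62.4, 83.2 and 72.4 CPM in RalA cKO cells and 52.2, 62.8, 76.8 and 71.3 CPM in control cells. All 4 RalAB cKO libraries were above all 8 others. The fold change was 0.64 ± 0.14 against control (adjusted p = 0.00426) and 0.59 ± 0.14 against RalA cKO (adjusted p = 0.00844), and RalA cKO was at 0.05 ± 0.14 against control (adjusted p = 0.862). Per length RalAB cKO and control cells were closer, at 57.0 ± 9.50 TPM in RalAB cKO, 35.6 ± 10.1 TPM in RalA cKO and 46.5 ± 11.3 TPM in control cells. With transcript length offsets the fold change against control was 0.43 (adjusted p = 0.107), and on the log2(TPM + 1) scale 0.31 (adjusted p = 0.325). Against RalA cKO it passed in all 24 alternatives run, from 0.50 to 0.70.

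Not overlapping with the control libraries were 2 of 10 factors in RalAB cKO, Sox8 and Tcf7l2, where 19.2% of all genes did not overlap. Against RalA cKO there were 3, Tcf7l2, Zfp488 and Nkx6-2, where 17.3% did not.

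**Figure D3:**
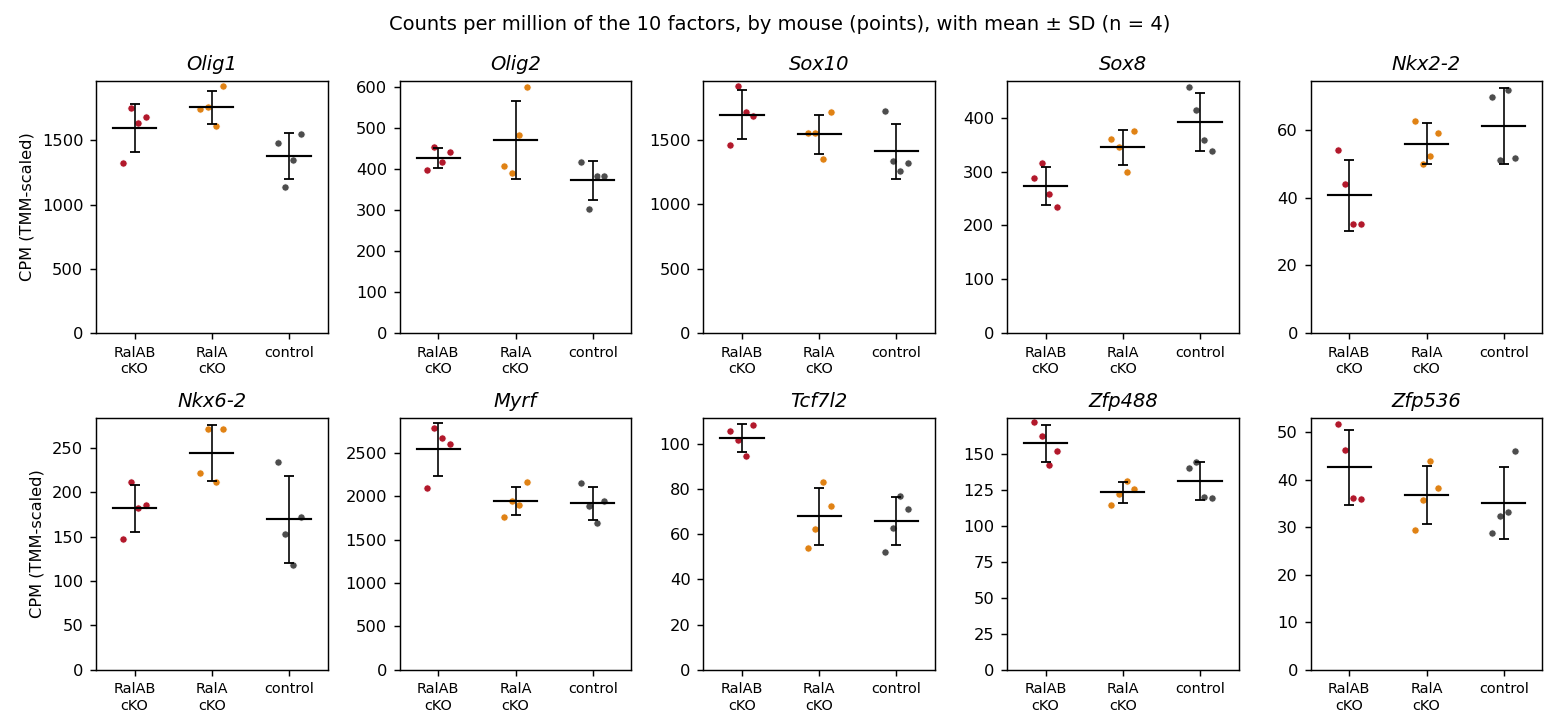
CPM of the 10 factors on linear axes from 0, each point 1 mouse, with the mean and SD of the 4 mice of a group. The 4 RalAB cKO points of Tcf7l2 (94.4 to 108 CPM) lie above all others, and those of Sox8 (234 to 315 CPM) lie below all control points.

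The transcripts of Tcf7l2 differ at the 3′ end of the gene, where alternative exons change the end of the protein. The 3 transcripts below share an exon at chr19:55923896-55923944 and the start of the last exon at 55931434 (GRCm38), and they are shown because Tcf7l2-209 and Tcf7l2-210 gave the calls among single transcripts of the gene. Each sequence, read from the GENCODE vM21 transcripts, runs from the last 30 bases of the shared exon to the first 9 of the last exon, and capitals mark the exons between them.
Tcf7l2-209: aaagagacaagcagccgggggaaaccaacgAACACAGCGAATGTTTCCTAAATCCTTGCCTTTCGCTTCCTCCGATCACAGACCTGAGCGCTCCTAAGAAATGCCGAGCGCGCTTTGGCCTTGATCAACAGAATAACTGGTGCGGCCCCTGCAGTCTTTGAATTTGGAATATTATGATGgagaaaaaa
Tcf7l2-210: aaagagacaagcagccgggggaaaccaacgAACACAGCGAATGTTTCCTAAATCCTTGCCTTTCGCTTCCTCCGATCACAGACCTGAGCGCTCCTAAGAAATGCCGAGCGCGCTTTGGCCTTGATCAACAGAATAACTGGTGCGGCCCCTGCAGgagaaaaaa
Tcf7l2-201: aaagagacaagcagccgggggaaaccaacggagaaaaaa
Tcf7l2-209 holds 3 exons there (149 bases) and Tcf7l2-210 holds 2 (124 bases), so they differ by an exon of 25 bases. The annotated stop codon of Tcf7l2-209 lies in this exon, number 14 of 15, whereas those of Tcf7l2-210 and Tcf7l2-201 lie in their last exons. The annotation gives 1377 coding bases to Tcf7l2-209, 1794 to Tcf7l2-210 and 1326 to Tcf7l2-201. The last exon is also longer in Tcf7l2-209, at 2221 bases against 762 in Tcf7l2-210.

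Tcf7l2-209 had 48.3, 38.2, 40.3 and 40.6 CPM in RalAB cKO cells, 21.9, 30.7, 44.6 and 43.1 CPM in RalA cKO cells and 16.3, 17.8, 23.4 and 21.1 CPM in control cells. All 4 RalAB cKO libraries and 3 of 4 RalA cKO libraries were above every control library. It rose in RalAB cKO against control by 1.09 ± 0.21 (adjusted p = 0.0285 over 31497 transcripts), and was at 0.84 ± 0.21 in RalA cKO against control, which did not pass (adjusted p = 0.191; 0.0164 with DESeq2). Tcf7l2-210 had 11.6, 14.6, 8.62 and 11.1 CPM in RalAB cKO cells, 3.26, 4.52, 5.79 and 3.69 CPM in RalA cKO cells and 8.19, 12.05, 15.5 and 11.8 CPM in control cells. The RalA cKO libraries lay below all 8 others, and the fold change in RalAB cKO against RalA cKO was 1.42 ± 0.27 (adjusted p = 0.0240). In RalA cKO against control it was -1.47 ± 0.27 and did not pass (adjusted p = 0.0735; 0.000053 with DESeq2), and in RalAB cKO against control it was -0.05 ± 0.26 (adjusted p = 0.979).

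As a share of the counts of Tcf7l2, Tcf7l2-209 took 41.0% ± 3.62 in RalAB cKO, 51.2% ± 8.34 in RalA cKO and 29.6% ± 1.17 in control cells. Both mutants lay above all control libraries, by 11.4 percentage points in RalAB cKO and 21.6 in RalA cKO. Tcf7l2-210 took 11.2% ± 2.28, 6.38% ± 0.983 and 17.7% ± 1.99 in RalAB cKO, RalA cKO and control cells, and no pair of groups overlapped. For these 5 differences the exact two-sided permutation p was 0.0286, the smallest that 4 mice against 4 can give, and 0.125 after adjustment over 57 share tests. Both calls depended on single libraries. That of Tcf7l2-209 was lost without any 1 of the 4 RalAB cKO mice or control mouse 1, 2 or 4 (1.01 to 1.14, adjusted p from 0.0544 to 0.0895), and that of Tcf7l2-210 without RalA cKO mouse 1, 2 or 4 or RalAB cKO mouse 1, 2 or 4 (1.28 to 1.44, adjusted p from 0.0506 to 0.0856).

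**Figure D4:**
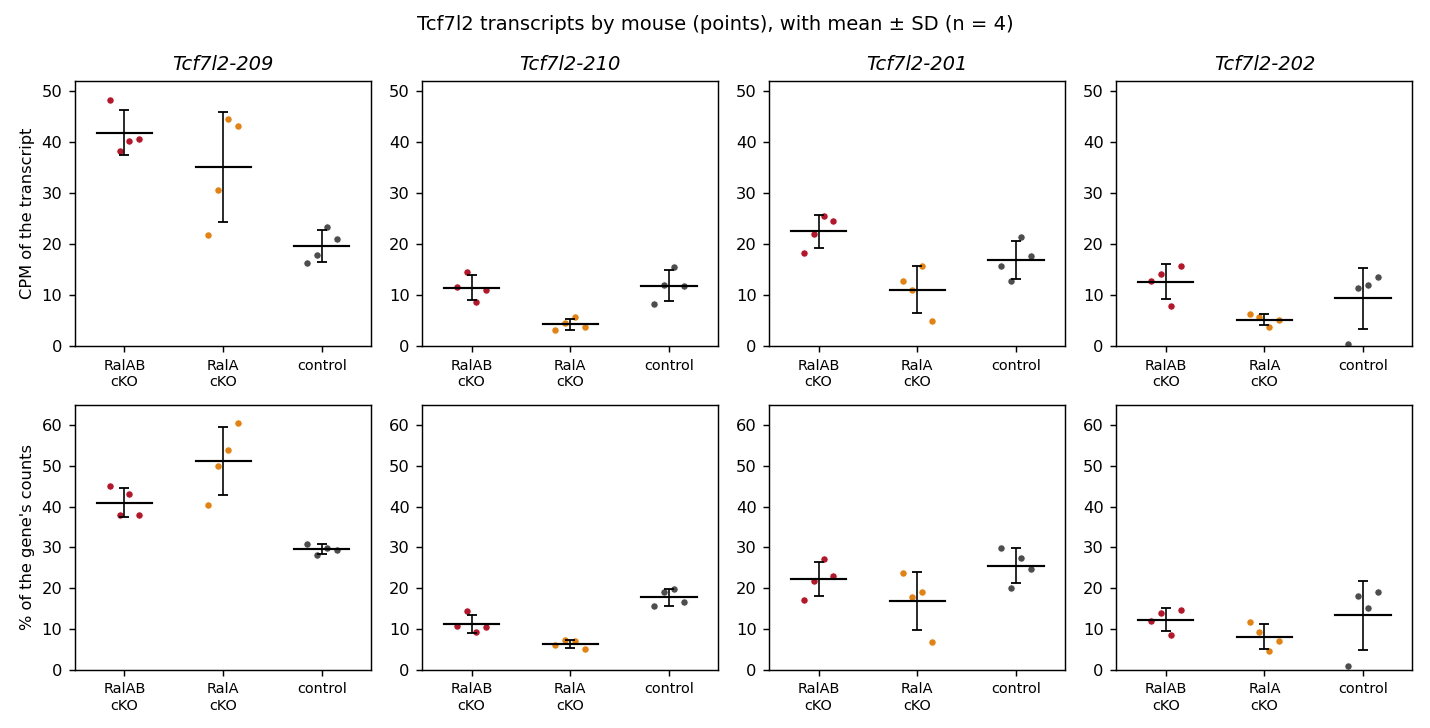
The 4 Tcf7l2 transcripts with the most counts, as CPM (upper row) and as percent of all Tcf7l2 counts (lower row), each point 1 mouse with group mean and SD. Tcf7l2-209 takes 28.1% to 30.9% of the counts in control mice and at least 37.8% in every mutant mouse, and Tcf7l2-210 is lowest in RalA cKO at 5.17% to 7.37%.

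Counts allowed 35 of the 54 transcripts to be tested, and 50 had any counts. Tcf7l2-209 was the only 1 of 35 called in RalAB cKO against control, where 1.68% of all transcripts were called. Tcf7l2-210 and Myrf-202 were the 2 of 35 called in RalAB cKO against RalA cKO, where 1.52% of all were called. For RalA cKO against control edgeR called 0 of 35, where 0.117% of all were called. There 10 of 35 had an unadjusted p under 0.05, DESeq2 called 3 and limma-voom with quality weights called 0. The matching shares of all transcripts are not given for the unadjusted p or these 2 tools. Those counts are therefore not read as particular to the factors. Of the 57 share tests, on 19 transcripts of 6 factors, 0 passed at an adjusted p of 0.05 and 13 had an unadjusted p under 0.05. Tcf7l2 gave 5 of the 13 with an unadjusted p under 0.05. Transcripts of a gene share most of their reads, so their counts are estimates that trade against each other.

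Zfp488 (ENSMUSG00000044519, chr14:33967070-33978764, minus strand), a zinc finger protein that acts with Olig2, had 172, 162, 142 and 152 CPM in RalAB cKO cells, 114, 122, 131 and 125 CPM in RalA cKO cells and 140, 144, 120.0 and 119 CPM in control cells. Every RalAB cKO library was above every RalA cKO library, with a fold change of 0.35 ± 0.10 (adjusted p = 0.0272). Against control it was 0.26 ± 0.10, which did not pass (adjusted p = 0.0739; 0.0278 with DESeq2 and 0.0355 with limma-voom with quality weights). The call against RalA cKO was lost without RalA cKO mouse 1, 2 or 4 or RalAB cKO mouse 1, 2 or 4 (0.30 to 0.37, adjusted p from 0.0518 to 0.0897). It was also lost with no count filter (adjusted p = 0.0681), on the log2(TPM + 1) scale (0.0645) and with the Y-linked covariate (0.0632).

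Zfp536 (ENSMUSG00000043456, chr7:37472135-37773641, minus strand), also a zinc finger protein, had 51.9, 46.4, 36.2 and 36.0 CPM in RalAB cKO cells, 29.4, 35.8, 44.0 and 38.3 CPM in RalA cKO cells and 28.9, 32.4, 33.2 and 46.2 CPM in control cells. The groups overlapped and no comparison passed, with fold changes of 0.28 ± 0.16 in RalAB cKO and 0.07 ± 0.17 in RalA cKO against control (adjusted p = 0.255 and 0.823). Zfp536 lies on chromosome 7 between Tshz3 and Plekhf1, a place singled out after the values were seen. In RalA cKO against control Tshz3 was at -1.30 ± 0.22 (adjusted p = 0.00687), Plekhf1 at -3.12 ± 0.16 (adjusted p = 2.5e-08) and Pop4, beyond Plekhf1, at -2.03 ± 0.12 (adjusted p = 1.16e-07), with Zfp536 between them at 0.07. The same neighbours in RalAB cKO against control were at -0.27 ± 0.21, 0.48 ± 0.14 and 0.08 ± 0.12, of which Plekhf1 passed (adjusted p = 0.0233).

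The 8 precursor genes summed to 0.0197% to 0.0542% of counts in RalAB cKO, 0.0300% to 0.0515% in RalA cKO and 0.0528% to 0.0966% in control cells, and 6 of the 8 fell in RalAB cKO against control. The lowest precursor sum was in RalAB cKO mouse 3 and the highest of that group in mouse 1, which was also its highest library for Nkx2-2. Mature oligodendrocyte genes summed to 0.143% to 0.225% in RalAB cKO, 0.408% to 0.456% in RalA cKO and 0.382% to 0.531% in control cells. Of these 10 genes RalAB cKO against control had 2 higher and 6 lower, and RalA cKO against control had 5 higher and 0 lower. The 10 genes of committed and newly formed oligodendrocytes summed to 0.766% ± 0.0586 in RalAB cKO, 0.633% ± 0.0622 in RalA cKO and 0.804% ± 0.113 in control cells. Of them 1 was higher and 3 were lower in RalAB cKO against control, and 4 were lower in RalA cKO against control. Microglial genes summed to 0.0979% to 0.153%, 0.0132% to 0.0235% and 0.0204% to 0.0486% of counts in RalAB cKO, RalA cKO and control cells, and 7 of 8 rose in RalAB cKO against control. Astrocyte genes, of which 5 of 7 fell in RalAB cKO, summed to 0.0262% to 0.0329%, 0.0304% to 0.0483% and 0.0356% to 0.0664%. The 5 ventral spinal neuron markers stand for a neuron class that can hold Nkx and Olig factors in development. Of these, Sim1, Isl1 and Mnx1 were under 3 counts in every library. Chat and Slc5a7 had counts, and the 5 summed to at most 0.00143% of any library. Only 1 of the 5 was tested, at -0.74 in RalAB cKO against control. It was not called by edgeR but was called by DESeq2 and by limma-voom. The part of these markers in the values of the 10 factors was not tested.

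**Figure D5:**
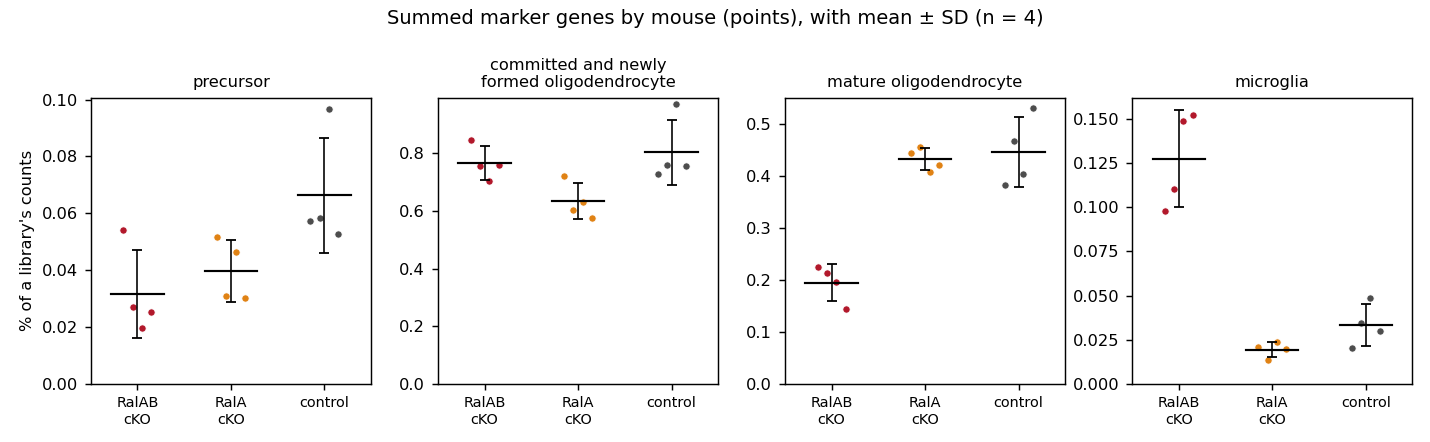
Summed counts of 4 marker lists as percent of the counts of a library, on axes from 0, each point 1 mouse with group mean and SD. Mature oligodendrocyte genes are lowest in RalAB cKO (0.143% to 0.225%) and microglial genes highest there (0.0979% to 0.153%).

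The counts for the gene lists that follow stand beside the shares of all genes called. These were 18.4% in RalAB cKO against control, 2.78% in RalA cKO against control and 11.5% between the mutants. Small lists near these shares show nothing particular to the list. Counts at an unadjusted p under 0.05 have no such share beside them. Of 20 progenitor factors, 5 were called in RalAB cKO against control, 2 higher and 3 lower, with a median of -0.45 against -0.01 over all genes. The proto-oncogene Mycn was at 1.08 ± 0.23, the Sox factor of neural progenitors Sox3 at -1.23 ± 0.32 and Etv5, a factor downstream of growth factor signalling, at -0.85 ± 0.21. Sox4 was higher in RalAB cKO than in RalA cKO (0.59 ± 0.11), the only 1 of the 20 called there. For RalA cKO against control edgeR called 0 of 20, with 6 at an unadjusted p under 0.05, 1 called by DESeq2 and 3 by limma-voom, and a median of -0.42.

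Of 19 differentiation factors 18 were tested. Against control, RalAB cKO had 1 that rose, the thyroid hormone receptor Thra (0.48 ± 0.14), and 3 fell: Myt1, a zinc finger protein of precursors (-1.19 ± 0.26), the E protein Tcf12 (-0.47 ± 0.14) and the nuclear factor Nfix (-0.54 ± 0.17). For RalA cKO against control edgeR called 0 of 18, with 4 at an unadjusted p under 0.05, 2 called by DESeq2 and 4 by limma-voom. Between the mutants it also called 0 of 18, with 2 at an unadjusted p under 0.05, 0 called by DESeq2 and 1 by limma-voom. The median was -0.05 in RalAB cKO against control, -0.13 in RalA cKO against control and -0.03 between the mutants. Of 12 chromatin partners of these factors, 1 was called, the remodeller subunit Ep400 in RalAB cKO against RalA cKO (0.33 ± 0.08). Against control edgeR called 0 of 12 in RalAB cKO and 0 of 12 in RalA cKO, with 2 and 1 at an unadjusted p under 0.05, 1 and 0 called by DESeq2, and 0 and 0 by limma-voom.

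Tcf7l2 binds DNA in the Wnt pathway, and 16 of 19 genes listed as its partners and readouts were tested. Of these, 1 rose and 3 fell in RalAB cKO against control, with a median of -0.37. Its paralog Tcf7l1 rose to 48.5 ± 9.98 CPM in RalAB cKO cells, against 27.9 ± 3.37 CPM in control cells (0.80 ± 0.15, adjusted p = 0.00212), and the corepressor Tle3 fell to 31.0 ± 1.63 CPM, against 53.7 ± 4.24 CPM in control cells (-0.79 ± 0.10). The Wnt antagonist Nkd1 fell in RalAB cKO against both control (-0.62 ± 0.13) and RalA cKO (-0.94 ± 0.13). Against RalA cKO 2 rose and 2 fell, with a median of 0.02. RalA cKO against control had 1 that fell, the corepressor Tle4 (-0.52 ± 0.13, adjusted p = 0.0439), with a median of -0.19.

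Genes known as targets of Sox10 and Myrf did not share one direction. Of 22, RalAB cKO against control had 4 higher and 5 lower, with a median of -0.06, and RalAB cKO against RalA cKO had 1 higher and 6 lower, with a median of -0.25. Mog, a protein of the outer myelin surface, fell to 1578 ± 146 CPM in RalAB cKO cells, against 2385 ± 371 CPM in control cells (-0.60 ± 0.13). Opalin, a membrane protein of oligodendrocytes, fell in RalAB cKO (-0.41 ± 0.13) and rose in RalA cKO (0.72 ± 0.13) against control. Aspa, which cleaves N-acetylaspartate, rose in RalA cKO against control (0.84 ± 0.17), and the connexin Gjb1 was lower in RalAB cKO than in RalA cKO (-0.90 ± 0.17). RalA cKO against control had 2 of 22 higher and 0 lower, with a median of 0.22.

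The genes whose pattern over the 12 libraries lay nearest to Tcf7l2, Myrf and Sox8 were found among 9661 protein-coding genes by the root mean square difference of centred log2 CPM. For Tcf7l2 they were Inpp4a (0.11), Pkp4 (0.12) and Jmy (0.13), where Tcf7l2 itself had an SD of 0.37 over the libraries. For Myrf they were Pdgfa (0.06), Polr2a (0.07) and Phactr1 (0.07), and for Sox8 they were Vangl2 (0.09), Fam189b (0.12) and Mesd (0.12). These values describe likeness over the same 12 libraries.

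Within 2 M bases of a called factor, genes called in RalAB cKO against control were 16 of 116 around Sox8 on chromosome 17, 4 of 13 around Nkx2-2 on chromosome 2 and 11 of 64 around Myrf. There were 2 of 21 around Tcf7l2, both on chromosome 19 and both lower, Gpam and Vti1a, and 7 of 23 around Zfp488 on chromosome 14. Over all genes 18.4% were called. The counts around Sox8, Myrf and Tcf7l2 were below that share, and those around Nkx2-2 and Zfp488 were above it. Zfp488 itself was called only between the mutants, where 4 of 23 genes around it were called, against 11.5% of all genes. The 4 near Nkx2-2 called in RalAB cKO against control were Nkx2-2os, 6430503K07Rik, Cst3 and Kiz, 2 higher and 2 lower.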

How the data were processed

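RNA of sorted spinal cord cells was sequenced in 12 libraries, 4 mice per group, grouped by genotype per the labels. The deposited files give per transcript an estimated count and a TPM value made by the authors; per the submitters' processing notes Trimmomatic 0.36, kallisto 0.44 and GRCm38.p6 were used. The deposited TPM values served only for levels per length and for alternatives. Effective lengths entered another alternative.

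Of 121843 transcripts 121104 matched GENCODE vM21 by identifier, and the 739 others held 0.2185% to 0.2772% of counts. Estimated counts were summed per gene (35675) and rounded. All 12 libraries were fitted together in edgeR 4.0.16 (filterByExpr with minimum count 10 and total 15, TMM scaling, robust quasi-likelihood F test, Benjamini-Hochberg adjustment at 0.05), for 13456 genes and for 31497 transcripts. A standard error is the log2 fold change over the square root of F. Shares were tested where a transcript averaged at least 50 counts. The fit was tested on simulated data. Libraries of a group differed beyond sampling noise (chi-square per degree of freedom 9.09 to 39.5), so all counted.

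The factors and gene lists were chosen with earlier results of these data known. Genes named beside the factors were, per list, up to 4 called members with the smallest p over the comparisons (with none called, the 2 most abundant), the 3 nearest in pattern, and up to 4 called genes within 2 M bases. The genes nearest in pattern to Nkx2-2 and Zfp488 are not reported here. Mouse numbers were names only. Alternatives were DESeq2 1.42.0, limma 3.58.1 (voom with quality weights, or log2(TPM + 1)), other scalings, a filter at 1 CPM in 4 libraries, none at all, nuclear protein-coding genes only, 2 groups alone, mouse number as a block, length offsets, a covariate of summed Y-linked expression, and leaving out each library.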

Additional observations from a re-analysis of the deposited data

Results flagged for a closer look

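Sox10 in control mouse 1 had 1722 CPM, far above the other 3 control libraries (1259 to 1337 CPM) for the range of its group. Of 30 groups of 4 libraries examined, 10 factors in 3 groups, 1 stood out in this way, and chance gives about 1 in 20. Without this library Sox10 was at 0.38 in RalAB cKO against control (adjusted p = 0.0372 in edgeR) and at 0.24 in RalA cKO against control (adjusted p = 0.200).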

How the results depend on the processing

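Of 991 values of single genes, transcripts, ranks and shares under alternatives, 887 kept their direction and their side of the threshold, 61 lost a call, 16 gained one and 27 turned direction; no value that turned direction had passed its test. The number of factors called in RalA cKO against control (0) was 1 with DESeq2, 2 with limma-voom with quality weights and 0 to 1 with a library left out. Over all genes these settings called 1083, 1789 and 85 to 944, against 374 in the main run. In RalAB cKO against control (4) the number of factors was 2 with length offsets, 3 with log2(TPM + 1) and 5 with DESeq2. It was 6 with limma-voom with quality weights and 2 to 4 with a library left out. Over all genes these settings called 1951, 2225, 2964, 4071 and 1605 to 3209, against 2478 in the main run. In RalAB cKO against RalA cKO (3) the number of factors was 1 with no count filter and 1 with the Y-linked covariate. It was 6 with limma-voom with quality weights and 1 to 3 with a library left out. Over all genes these settings called 1449, 1335, 2540 and 1117 to 1678, against 1552 in the main run. Transcripts called in RalA cKO against control (0) were 3 with DESeq2 and 0 to 1 with a library left out. In RalAB cKO against control (1) they were 3 with library totals, 6 with DESeq2, 4 with limma-voom with quality weights, 2 with 2 groups alone and 0 to 2 with a library left out. In RalAB cKO against RalA cKO (2) they were 1 with no count filter, 5 with DESeq2, 5 with limma-voom with quality weights and 0 to 3 with a library left out. The counts over all transcripts under these alternatives are not given here. The cause of these moves was not tested, apart from fewer samples in the runs with a library left out.

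With the mouse number as a block, 3 factors were called in RalAB cKO against control, where Myrf was at 0.40 (adjusted p = 0.0534). Under it 1 factor and 0 transcripts were called in RalAB cKO against RalA cKO, and 0 transcripts in RalAB cKO against control. Over all genes the block called 2145 in RalAB cKO against control and 1343 in RalAB cKO against RalA cKO. Between the mutants Myrf was at 0.39 (adjusted p = 0.0852) and Zfp488 at 0.35 (adjusted p = 0.0622) under the block. The numbers do not pair mice in the labels, and deviations of same-numbered mice correlated at -0.198 to 0.175.

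Fold changes that turned direction in RalA cKO against control were Sox10 at -0.0286 with log2(TPM + 1); Nkx2-2 at 0.0148 with the Y-linked covariate; Myrf at -0.0953 with library totals, -0.218 with log2(TPM + 1), -0.0299 with length offsets, -0.0401 with the Y-linked covariate and -0.0509 to 0.0774 with a library left out. Tcf7l2 was at -0.0727 with library totals, -0.0475 with limma-voom with quality weights, -0.376 with log2(TPM + 1), -0.196 with length offsets and -0.0579 to 0.145 with a library left out. Zfp536 was at -0.0408 with library totals, -0.0493 with limma-voom with quality weights, -0.068 with log2(TPM + 1) and -0.0215 to 0.24 with a library left out. In RalAB cKO against control Nkx6-2 was at -0.0129 with log2(TPM + 1) and -0.0523 to 0.302 with a library left out, Tcf7l2-210 at -0.195 to 0.0993 with a library left out, and the share of Myrf-202 at 0.139 percentage points with shares of TPM and -0.704 to 0.0754 with a library left out. In RalAB cKO against RalA cKO Zfp536 was at -0.00158 with the Y-linked covariate.

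Library totals moved the median of all genes to -0.14 in RalA cKO and -0.10 in RalAB cKO against control, and log2(TPM + 1) to -0.18 and -0.12. Each group had 4 mice, and exact tests of 4 against 4 cannot go below p = 0.0286.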
